A study of Ecsenius pulcher with 24 samples.

Results

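The recovery experiment compared tail muscle of reef blennies that had been through a low-oxygen exposure with muscle of fish that had not. The animal was *Ecsenius pulcher*, a small coral reef fish, and each library came from a skin-free slice of the front of the tail of 1 fish, with polyadenylated RNA sequenced. Of the 24 libraries of the series, 12 belong to this comparison by their titles: 6 fish of the hypoxic group, sampled once oxygen had been restored and the fish had recovered, and 6 fish of the control group, sampled at the matched time without hypoxia. The exposure followed oxygen profiles measured on nearby reefs; its depth and duration, the length of recovery, and the strain, sex and age of the fish are not stated in the labels or design text. The other 12 libraries, from 6 hypoxic and 6 control fish taken during the exposure, enter only where stated. Fish are called control 1 to 6 and hypoxic 1 to 6 after the replicate numbers in their titles.

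When oxygen falls, vertebrate muscle shifts from aerobic metabolism towards glycolysis, and transcription factors of the hypoxia-inducible family accumulate and raise glycolytic, vascular and mitochondrial turnover genes. When oxygen returns those factors are broken down rapidly, while repair of oxidative damage, restoration of energy stores and protein synthesis can go on for longer. Such responses are usually read through named genes. The deposited table holds only identifiers of the form used by the Trinity assembler, in which the DN and c parts name an assembly component and the g part a gene-level cluster of transcripts within it. It pairs none of them with a gene name, so the results are given for features by identifier, neither muscle markers nor hypoxia genes could be checked, and no function is assigned to any feature.

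Each library summed to between 31085706 and 38150708 estimated counts, with 108015 to 153528 features detected. Of 518956 features in the table, 380703 had a count in at least 1 of the 12 fish and 57783, in 44512 components, passed the filter on low counts; these took 98.46% to 99.24% of each library. Total count, number of detected features and scaling factor did not differ between the groups beyond the spread between fish (lowest of 6 exact permutation p-values 0.682, n = 6 per group, two-sided). In hypoxic 4 every value was a whole number, whereas 4.18% to 7.33% of the nonzero values of the other 11 libraries were not, and the sources at hand do not say why. Levels below are CPM, counts scaled to library size, with TMM (trimmed mean of M-values) factors unless stated. In whole muscle, fewer cells of a type and less RNA per cell cannot be told apart.

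Control 2, control 3 and hypoxic 3 stood apart from the other fish. On the first principal component of the 2000 most variable features, which held 32.44% of the variance, these 3 fish scored 65.8, 99.07 and 56.68, while the other 9 fish lay between -47.75 and -3.34. The component therefore divided the fish without following the exposure, since both groups had members on each side. Over all features tested, the Spearman correlation between 2 of these 3 fish was 0.885 to 0.894. Between 1 of them and 1 of the other 9 it was 0.766 to 0.892, and among the other 9 it was 0.875 to 0.939. Control 2 and control 3 also had high shares of counts in a few features: the 100 most abundant features took 41.97% and 42.04% of them. Hypoxic 3, at 34.29%, lay just above the 24.03% to 33.62% of the other 9. The part of this concentration in the division was not tested.

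**Figure D1:**
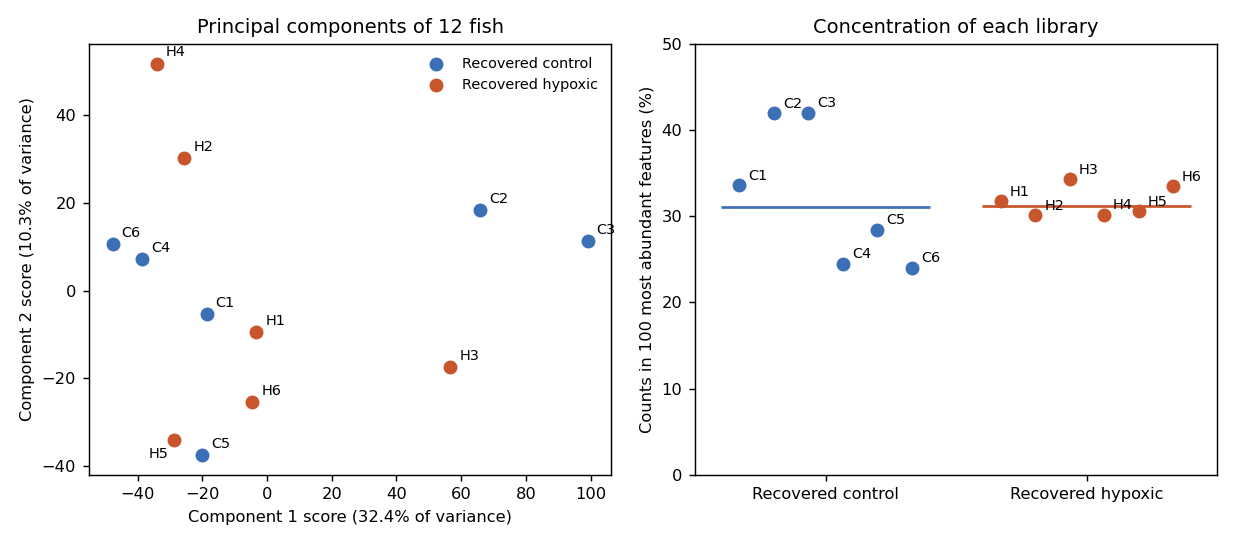
Left, scores of the 12 fish on the first and second principal components (axes in score units, with the percent of variance held); right, percent of counts in the 100 most abundant features of each library, with a line at the group median. Blue points are recovered control fish (C1 to C6) and orange points recovered hypoxic fish (H1 to H6): C2, C3 and H3 lie at 56.68 or higher on component 1, and hypoxic fish spread less than controls on the right.

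The features that set this axis were not the most abundant. TRINITY_DN102935_c3_g1 had the largest positive weight and stood at 34.1, 84.9 and 22.2 CPM in control 2, control 3 and hypoxic 3, against 0 to 12.7 CPM in the other 9. TRINITY_DN102935_c2_g1, of the same larger assembly group, followed it at 18.2, 43.6 and 10.2 CPM against 0 to 7.24 CPM. The negative end was led by TRINITY_DN12394_c1_g2, at 0, 0 and 0.0718 CPM in those 3 fish and 0.902 to 7.03 CPM in the others. TRINITY_DN12651_c0_g1 was likewise low there, at 0.354, 0 and 0 CPM against 0.905 to 9.36 CPM elsewhere. Each of these levels describes the fish that were used to build the axis and carries no test.

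Components 2 and 3, with 10.33% and 9.14% of the variance, were led by features that switched between nearly absent and abundant from fish to fish. The 2000 features were taken for high variance and those named here for their large weights. Uneven levels were therefore likely among them, and they carry no test. TRINITY_DN35714_c0_g1, at the negative end of component 2, stood at 79.3 to 481 CPM in controls 2, 4 and 5 and hypoxic 1, 3 and 5, and at 0.0299 to 2.41 CPM in the other 6 fish. The 3 fish of each group that carried it at the higher level show that its division, too, ran across the exposure groups. TRINITY_DN142733_c4_g1, at one end of component 3, reached 254 CPM in control 3, 39.0 in control 1, 29.4 in control 6 and 22.0 in hypoxic 5, and stayed at 0 to 1.58 CPM in the other 8. TRINITY_DN46632_c2_g1, at the opposite end, reached 52.7 CPM in hypoxic 1 and 37.9 CPM in control 2 and was at 0 CPM in controls 4 and 6. The other leading features of these components were as patchy: TRINITY_DN96201_c1_g1 stood at 13.3 and 7.41 CPM in control 2 and control 3 and at 0 to 1.66 CPM in the other 10 fish. TRINITY_DN37522_c1_g1 peaked at 10.7 CPM in hypoxic 4 and TRINITY_DN29943_c0_g1 at 14.6 CPM in control 1, each with a lowest value of 0 CPM. TRINITY_DN12333_c0_g1 peaked at 24.1 CPM in control 2 and TRINITY_DN253855_c3_g1 at 101 CPM in control 3, and both were at 0 CPM in 3 fish. Each of these 5 features had values under 0.1 CPM in fish of both groups.

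The exposure label explained little of this structure. The share of variance of the 2000 features that lay between the group means was 7.36%, which was not more than other divisions of the 12 fish into 6 and 6 gave (exact permutation p 0.699, n = 6 per group). Hypoxic minus control scores were -13.26 on component 1, with means of -6.63 ± 33.56 in hypoxic fish and 6.63 ± 60.67 in controls (SD, n = 6; exact permutation p 0.699, two-sided). They were -1.49 on component 2 and -1.72 on component 3, and all 3 had an adjusted exact permutation p of 0.939. Of the 12 fish, 5 had their nearest neighbour in their own group (exact permutation p 0.684, one-sided). Hypoxic 2, for example, lay nearest to control 4 at a distance of 89.61, and hypoxic 5 and hypoxic 6 both lay nearest to control 1. Correlations between a hypoxic and a control fish ran from 0.781 to 0.938 with a median of 0.893, close to those between 2 hypoxic fish, which ran from 0.829 to 0.938 with a median of 0.901. Without control 2, control 3 and hypoxic 3, the share between groups was 11.4% (exact permutation p 0.778) and 5 of the 9 remaining fish had a nearest neighbour of their own group (exact permutation p 0.389).

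The spread of library measures within each group was compared after the narrow range of the hypoxic fish had been seen, so the p-values below describe that observation and are no independent evidence of a difference. The share of counts in the 100 most abundant features ran from 24.03% in control 6 to 42.04% in control 3, while the 6 hypoxic fish lay between 30.12% and 34.29%. The mean absolute deviation from the group median was 6.78 percentage points in controls and 1.43 in hypoxic fish, a difference of 5.35 (exact permutation p 0.00433, adjusted p 0.0195 over 6 library measures, two-sided, n = 6). The scaling factor and the number of features at 1 CPM or more were also more spread in controls (exact permutation p 0.0152 and adjusted p 0.0227 for each). Both calls were lost without control 2, control 3 and hypoxic 3, with differences of 0.0508 (exact permutation p 0.381) and 83.9 features (exact permutation p 0.857) in place of 0.168 and 2128. The spread of the total count did not pass with all fish (exact permutation p 0.723). For the share of the 100 most abundant features the difference was 3.99 to 5.80 when each fish was left out in turn, and 2.41 (exact permutation p 0.127) without control 2, control 3 and hypoxic 3. The spread in the number of detected features was 8534 features larger in controls (exact permutation p 0.0628, adjusted p 0.0753) and 7075 larger without those 3 fish (exact permutation p 0.0159, n = 4 controls and 5 hypoxic fish). In the fish sampled during exposure the deviation in the share of the 100 most abundant features was 6.62 percentage points in controls and 7.52 in hypoxic fish (exact permutation p 0.812, n = 6). Of the 57783 features, 33566 (58.1%) had a larger SD of log2 CPM in recovered controls than in recovered hypoxic fish. The median SD was 0.654 in controls and 0.589 in hypoxic fish. Both values were taken with control 2, control 3 and hypoxic 3 included.

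The 3 most abundant features showed the same pattern of wide controls. TRINITY_DN145_c0_g1 ran from 10155 to 41120 CPM in controls with a median of 16201, and from 16050 to 21908 CPM in hypoxic fish with a median of 18150. The hypoxic fish all fell within the control range, and the log2 difference was -0.18 (SE 0.44). TRINITY_DN14_c8_g1 ran from 9435 to 36947 CPM in controls and from 12427 to 23309 CPM in hypoxic fish (log2 difference -0.16, SE 0.45). TRINITY_DN132_c0_g1 ran from 6294 to 27920 CPM in controls and from 9347 to 18546 CPM in hypoxic fish (log2 difference -0.14, SE 0.44). None of these differences passed the edgeR test. In all 3 features control 2 and control 3 were the highest controls. The other controls ran from 10155 to 19884 CPM for TRINITY_DN145_c0_g1 and from 9435 to 16853 CPM for TRINITY_DN14_c8_g1. For TRINITY_DN132_c0_g1 they ran from 6294 to 17678 CPM.

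No feature differed between recovered hypoxic and recovered control fish past the adjusted threshold. The quasi-likelihood test of edgeR, fitted to the 12 libraries alone, called 0 of 57783 features at an adjusted p of 0.05 (0% of those tested, smallest adjusted p 0.99996). At an unadjusted p under 0.05 there were 1315 features, or 2.28% of those tested. Of these, 530 (0.917% of features tested) were higher and 785 (1.36%) lower in hypoxic fish. The 2.28% is less than a threshold of 0.05 passes on average when no feature differs, so the 1315 are no excess over that rate. The features share fish, and the share was 3% with DESeq2, 3.91% without control 2, control 3 and hypoxic 3, and 7.31% with no count filter. It therefore does not show that no feature differs. Of the same 57783 features, DESeq2 called 7, 6 higher and 1 lower, limma voom 0, and the newer quasi-likelihood method of edgeR 1. The median log2 fold change over all features was -0.01.

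Complete separation of the groups was rare. In 9 features every hypoxic fish lay above every control (0.0156% of those tested) and in 26 every hypoxic fish lay below (0.045%), together 35 or 0.0606%. All 35 averaged under 10 CPM, and 20 of them under 1 CPM. They included TRINITY_DN17353_c0_g1, which ran from 8.74 to 14.8 CPM in controls and from 3.29 to 8.36 CPM in hypoxic fish, and TRINITY_DN8752_c0_g1, which ran from 4.96 to 7.75 CPM in controls and from 3.49 to 4.74 CPM in hypoxic fish (log2 fold change -0.61, SE 0.20). These 2 are named because they were the most abundant of the 35, after their values had been seen.

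Of the 5 features with the smallest p on the higher side, 2 were clusters of one component, TRINITY_DN8086. TRINITY_DN8086_c0_g2 was at 0 to 0.197 CPM in controls (median 0.0212) and 0.431 to 3.38 CPM in hypoxic fish (median 1.95), on 13 counts in the 6 controls and 376 in the 6 hypoxic fish. The groups did not overlap, and the log2 fold change was 4.75 (SE 0.80, 95% interval 3.05 to 6.46; edgeR p 2.49e-05 before adjustment). It passed with DESeq2 (adjusted p 1.94e-06) and with the newer edgeR method (adjusted p 0.0375). TRINITY_DN8086_c0_g1, the other cluster of that component, had the same shape, with 0 to 0.373 CPM in controls and 0.524 to 3.23 CPM in hypoxic fish (log2 fold change 4.16, SE 0.86; DESeq2 adjusted p 0.000946). Both clusters of one component may be read from the same transcripts, so they are not separate pieces of evidence. In the 12 fish sampled during exposure neither reached the count filter, with at most 0.355 and 0.178 CPM (scaled to library totals only) in any fish.

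TRINITY_DN9271_c0_g2 ran from 0.512 to 9.18 CPM in controls (median 4.63) and from 5.49 to 66.3 CPM in hypoxic fish (median 30.2). Hypoxic 3 was the one hypoxic fish inside the control range, and the other 5 lay at 26.2 CPM or more. The log2 fold change was 2.69 (SE 0.57; DESeq2 adjusted p 0.00735), and without control 2, control 3 and hypoxic 3 it was 2.89 with an edgeR adjusted p of 0.0674. Its partner TRINITY_DN9271_c0_g1 averaged 4.67 CPM in controls and 28.6 CPM in hypoxic fish (log2 fold change 2.61, SE 0.59; DESeq2 adjusted p 0.0245). TRINITY_DN2137_c0_g1, named because DESeq2 called it (adjusted p 0.0179), averaged 0.345 CPM in controls and 3.05 CPM in hypoxic fish, with an edgeR log2 fold change of 3.14 (SE 0.71) that did not pass. During exposure TRINITY_DN9271_c0_g2 had a log2 difference of 1.01 (SE 0.96) between hypoxic and control fish, which did not pass either. Acute hypoxic 4 was at 18.2 CPM (scaled to library totals only). The other acute hypoxic fish, at 0.332 to 1.77 CPM, lay within the acute control range of 0.1 to 4.84 CPM.

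At higher levels, TRINITY_DN7698_c0_g1 ran from 67.7 to 158 CPM in controls (median 77.3) and from 132 to 472 CPM in hypoxic fish (median 217). Control 1, at 158 CPM, was the only control above the lowest hypoxic fish. Its log2 fold change was 1.53 (SE 0.33; DESeq2 adjusted p 0.0335). TRINITY_DN40781_c0_g1 ran from 17.6 to 37.6 CPM in controls and from 35.9 to 88.3 CPM in hypoxic fish (log2 fold change 1.33, SE 0.29), and hypoxic 4, at 35.9 CPM, was the only hypoxic fish below the 2 highest controls, at 37.0 and 37.6 CPM. Its difference during exposure was -0.20 (SE 0.49) on the log2 scale. Acute controls lay at 15 to 77.8 CPM and acute hypoxic fish at 19.1 to 132 CPM (scaled to library totals only). For TRINITY_DN7698_c0_g1 the difference during exposure was 0.85 (SE 0.54). Its acute controls lay at 88.7 to 499 CPM and its acute hypoxic fish at 63.5 to 1060 CPM, on the same scaling. For both features, some acute controls thus lay as high as recovered hypoxic fish, though scaled otherwise.

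On the lower side, TRINITY_DN70895_c1_g1 was at 1.84 to 4.78 CPM in 5 controls and at 0.0612 CPM in control 1, against 0 to 0.341 CPM in hypoxic fish. Control 1 thus lay with the hypoxic fish. The log2 fold change was -4.35 (SE 0.85; DESeq2 adjusted p 0.000352). TRINITY_DN70895_c0_g1, from the same larger assembly group but another component, had a log2 fold change of -1.04 (SE 1.401), too wide to tell whether it followed. It stood at 1.67 to 5.4 CPM (scaled to library totals only) in controls 2, 3, 4 and 5, and had 0 counts in controls 1 and 6. Among hypoxic fish it was at 3.32 CPM in hypoxic 1 and 3.98 CPM in hypoxic 6, with 0 counts in the others. TRINITY_DN5620_c0_g1 separated the groups, with 1.08 to 3.22 CPM in controls and 0.398 to 0.938 CPM in hypoxic fish (log2 fold change -1.70, SE 0.38). TRINITY_DN3059_c12_g1 did so too at a lower level, with 0.272 to 0.746 CPM against 0.0718 to 0.204 CPM (log2 fold change -1.96, SE 0.46). In the fish sampled during exposure (CPM scaled to library totals only), TRINITY_DN70895_c1_g1 was at 1.17 CPM in acute control 4 and at most 0.245 elsewhere. TRINITY_DN5620_c0_g1 was at 0.651 to 0.949 CPM in acute controls and 0.23 to 1.19 CPM in acute hypoxic fish. For TRINITY_DN3059_c12_g1 the acute controls lay at 0.0251 to 0.19 CPM and the acute hypoxic fish at 0.0551 to 0.593 CPM.

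TRINITY_DN4061_c2_g1 and TRINITY_DN12373_c0_g1 overlapped between the groups. The former was at 7.20 and 6.01 CPM in control 2 and control 3, 2 of the fish that stood apart, and at 0.742 to 2.63 CPM in the other controls, against 0.509 to 1.29 CPM in hypoxic fish. Its log2 fold change of -2.14 (SE 0.50) was -1.44 without the 3 fish. TRINITY_DN12373_c0_g1 ran from 0.495 to 5.31 CPM in controls and from 0.17 to 1.19 CPM in hypoxic fish (log2 fold change -2.20, SE 0.53). During exposure the log2 differences of TRINITY_DN4061_c2_g1 and TRINITY_DN12373_c0_g1 were 1 (SE 0.7) and 0.6 (SE 0.71), which did not pass. All of these features were picked for their small p-values, so their fold changes are biased away from 0, and none passed the edgeR threshold.

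**Figure D2:**
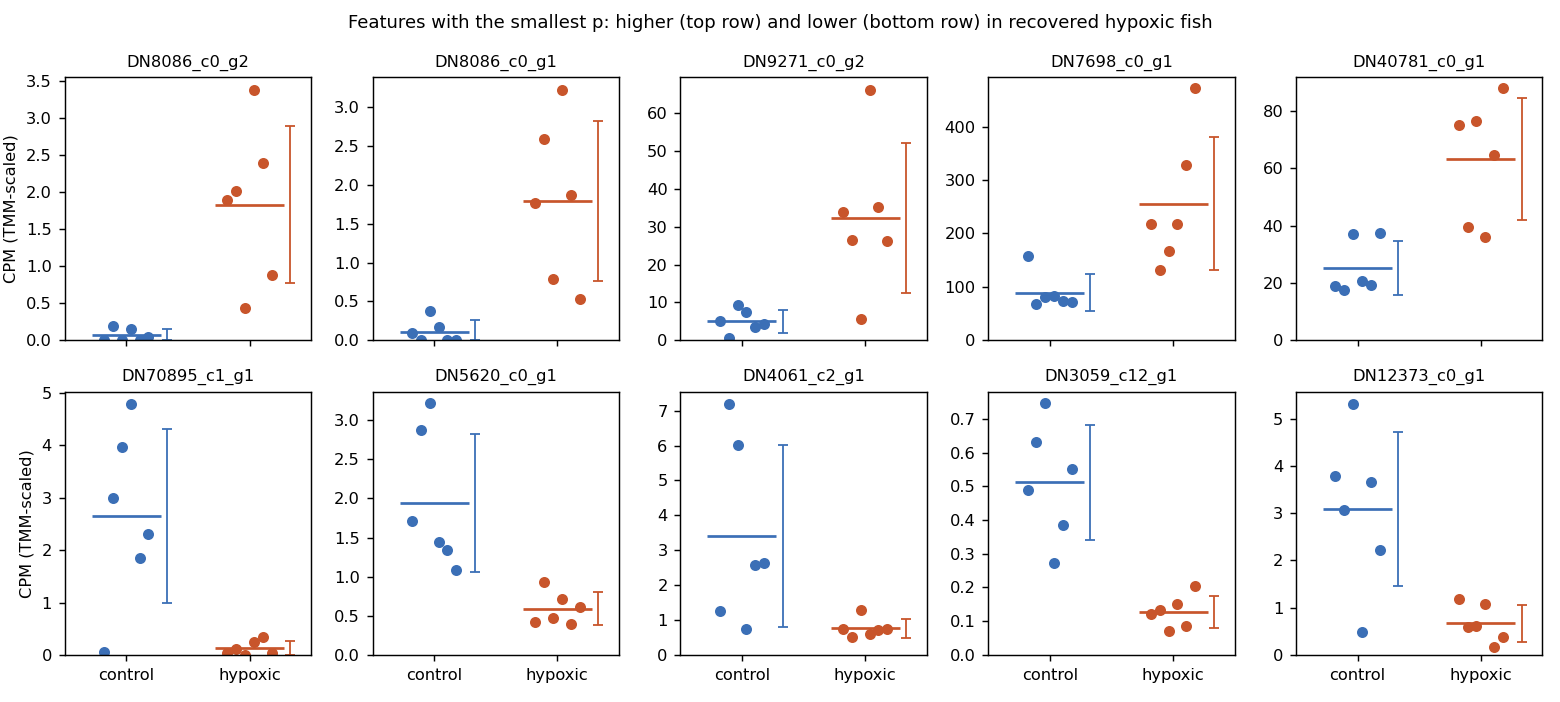
Levels in CPM (linear axis from 0, a scale of its own in each panel) of the 10 features with the smallest p, 1 point per fish, with a line at the group mean and a whisker of 1 SD, cut at 0 where it would go below. The top row shows features higher in recovered hypoxic fish and the bottom row features lower; the groups do not overlap for TRINITY_DN8086_c0_g2, TRINITY_DN8086_c0_g1, TRINITY_DN5620_c0_g1 and TRINITY_DN3059_c12_g1.

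A count of 0 calls does not say how large a difference could remain, so the interval of each feature was used to bound it. The 95% interval of the log2 fold change had a median half-width of 0.81 (interquartile range 0.60 to 1.105), or 1.76-fold either way. For 26748 features (46.3%) the whole interval lay within a 2-fold change in either direction, for 52452 (90.8%) within 4-fold and for 5041 (8.72%) within 1.5-fold. The features bounded within 2-fold took 58.2% of the tested counts, and those bounded within 4-fold took 97.7%. In the other direction, the whole interval lay beyond a 2-fold increase for 16 features and beyond a 2-fold decrease for 9. These intervals hold for 1 feature at a time. Widened by the Bonferroni method to hold for all 57783 at once, 0 features were bounded within 2-fold, 6875 (11.9%) within 4-fold and 38524 (66.7%) within 16-fold.

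The bound depended on abundance. Features averaging 10 to 100 CPM were held most tightly, with a median half-width of 0.56 log2 units and 9038 of 11314 (79.9%) within 2-fold. Those at 1 to 10 CPM had 16382 of 30668 (53.4%) within 2-fold, and those under 1 CPM had 489 of 14541 (3.36%). The 1260 features over 100 CPM had wider intervals than the 10 to 100 CPM group despite their higher counts, with a median half-width of 0.68 and 839 (66.6%) within 2-fold. The 3 most abundant features, described above, belong to that group. An estimated difference over 2-fold was found for 2141 features (3.71%), of which 1156 were under 1 CPM. Leaving out control 2, control 3 and hypoxic 3 bounded 26250 of 60624 features within 2-fold, and using the share of the top 100 features as a covariate bounded 31301 of 57783.

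**Figure D3:**
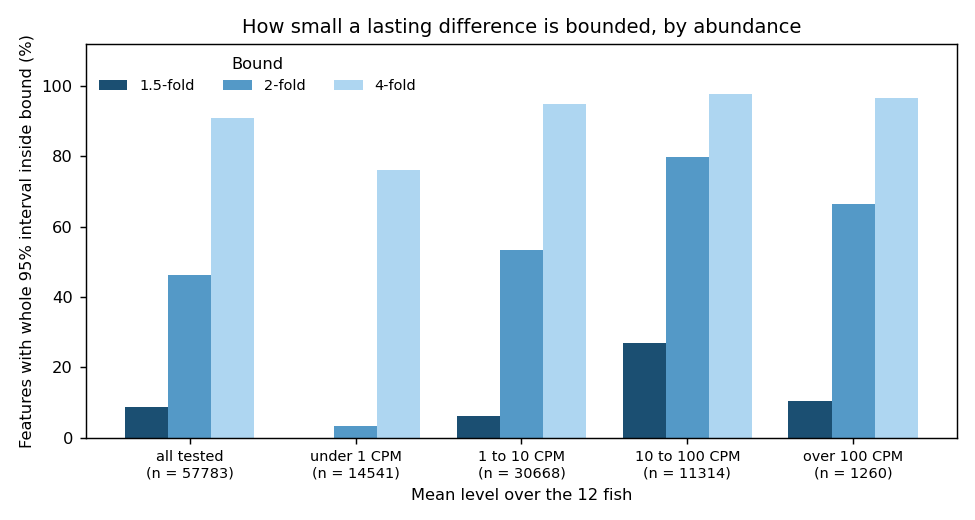
Percent of features (bars, from 0) whose whole 95% interval for hypoxic against control fish lies inside 1.5-fold, 2-fold or 4-fold, for all tested features and by mean CPM over the 12 fish. The 2-fold bar is lowest under 1 CPM (3.36%), highest at 10 to 100 CPM (79.9%) and lower again over 100 CPM (66.6%).

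The question of a lasting response was also put to the features that stood highest during exposure. These were the 50 with the smallest p among those higher in hypoxic fish in a separate edgeR fit to the 12 acute libraries, which share no fish with the recovery comparison. That fit called 0 of 57675 features (0%, smallest adjusted p 0.159), so the 50 are ranked candidates, with acute log2 fold changes of 0.73 to 4.56 and a median of 1.67 that are biased upward by the choice. After recovery 29 of the 50 (58%) were higher and 21 lower in hypoxic fish, against 48.7% higher over all features tested. The median log2 fold change was 0.10, against -0.01 over all features tested. An unadjusted p under 0.05 was found for 5 of the 50, all higher, against 0.917% of all features tested on that side. The upper end of the 95% interval lay under a 2-fold increase for 25 of the 50, and for 43 it lay under the value the same feature had during exposure. The choice raised those exposure values and their error is not counted here, so the 43 do not show that a response faded. Over all features, 71.2% had an upper end under a 2-fold increase.

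Among the 5 with the smallest acute p, levels after recovery overlapped widely. TRINITY_DN1594_c2_g2 had a log2 fold change of 1.42 during exposure and 0.02 (SE 0.35, 95% interval -0.72 to 0.75) after it, with 5.86 to 24.3 CPM in recovered controls and 5.21 to 15.7 CPM in recovered hypoxic fish. TRINITY_DN5684_c0_g2 went from 1.67 to -0.06 (SE 0.38), and TRINITY_DN8347_c0_g1 from 2.69 to -0.28 (SE 0.53). The intervals of these 3 excluded a 2-fold increase after recovery. TRINITY_DN6213_c0_g2 had a value of 3.51 during exposure and 1.13 (SE 0.64, 95% interval -0.23 to 2.49) after it. It stood at 3.02 and 2.73 CPM in hypoxic 1 and hypoxic 3, above the highest control at 1.34 CPM, while the other 4 hypoxic fish lay within the control range. TRINITY_DN16783_c1_g1 had 4.51 during exposure and 0.72 (SE 0.62, 95% interval -0.60 to 2.05) after it, so that up to a 4.13-fold residual increase lay inside its interval. Its value was 0.30 without hypoxic 1, 1.16 without control 3 and 1.37 with limma voom. That of TRINITY_DN6213_c0_g2 was 0.73 without hypoxic 1, and that of TRINITY_DN8347_c0_g1 ran from -0.46 without hypoxic 5 to -0.03 without hypoxic 6.

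The 5 candidates past the unadjusted threshold are named for that reason, after their values had been seen. TRINITY_DN5457_c0_g1 averaged 0.925 ± 0.465 CPM in recovered controls and 2.03 ± 0.655 CPM in recovered hypoxic fish (SD, n = 6), a log2 difference of 1.15 (SE 0.37) against 2.48 during exposure. TRINITY_DN7681_c0_g1 averaged 3.26 ± 1.04 and 5.68 ± 1.90 CPM (log2 difference 0.80, SE 0.30, against 1.14). The others, TRINITY_DN17519_c0_g1, TRINITY_DN14422_c1_g1 and TRINITY_DN15997_c0_g4, had log2 differences of 1.24, 1.23 and 0.87 against 4.16, 1.86 and 2.06. None passed the edgeR threshold over all features.

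**Figure D4:**
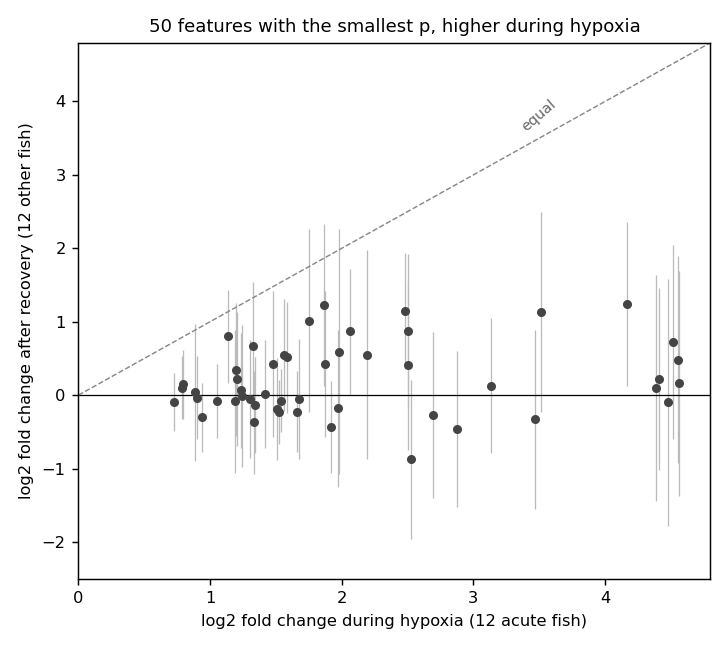
Log2 fold change of hypoxic against control fish during exposure (x axis, 12 acute fish) and after recovery (y axis, 12 other fish) for the 50 features, with the 95% interval of the recovery value as a vertical line. The recovery values have a median of 0.10, and all 50 points lie below the dashed line of equal change. The 50 were picked for small p in the acute fish, which raises their x values. Points below the line therefore do not show that a response faded, and the part of the choice in them was not tested.

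A further kind of structure was all-or-none. In 824 features, of 780 components, at least 2 fish had 1 CPM or more (here scaled to library totals only) and at least 2 fish had a count of 0, and they fell into 740 different patterns over the 12 fish. A count of 0 allows up to 3 counts, or 0.0786 to 0.0965 CPM depending on the library. None of the 824 was present in every hypoxic fish and absent from every control, and none the reverse. The most frequent pattern was held by 7 features that were absent in control 2 and control 3, at 1 CPM or more in control 4 and control 6, and in between in the other 8. Its 2 most abundant members, TRINITY_DN6864_c1_g1 and TRINITY_DN16286_c1_g1, reached 1.59 and 1.72 CPM in control 6 when scaled with TMM factors. Control 2, control 3 and hypoxic 3 had the most zeros among the 824, with 362, 383 and 355 against 175 to 250 in the other fish. These 3 libraries also had the fewest detected features, at 108015, 109293 and 122121 against 123791 to 153528. Their TMM factors were the lowest, at 0.729, 0.675 and 0.907 against 0.946 to 1.29. The part of lower detection in these zeros was not tested.

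In 42 of the 824 features every fish was either at 1 CPM or more or at a count of 0, and 6 patterns were shared by 2 or more of them. The largest held 3 features of different components, TRINITY_DN13194_c0_g2, TRINITY_DN20808_c1_g1 and TRINITY_DN2538_c1_g1. All 3 were present in controls 2, 4 and 6 and hypoxic 2 and 4, at 1.20 to 9.82 CPM, and had 0 counts in the other 7 fish. The 12 acute fish, which took no part in finding the pattern, showed the 3 features together again. Acute control 1 and acute control 4 held each at 4.50 to 7.46 CPM, and no other acute fish had more than 0.102 CPM of any of them.

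The same joint presence was seen in other groups of features from different components. TRINITY_DN35143_c0_g3 and TRINITY_DN4406_c0_g2 were present in control 1 and hypoxic 3 after recovery, at 5.15 to 9.36 CPM, and both were detected in the same 5 acute fish and in no other. TRINITY_DN33857_c1_g3 and TRINITY_DN45488_c0_g2 were present in control 2 and hypoxic 5, and among acute fish both had 25 to 61 counts in hypoxic 2, 5 and 6, with at most 1 count elsewhere. TRINITY_DN115_c0_g2 and TRINITY_DN4826_c2_g4, at 3.24 to 7.67 CPM in control 3 and control 4, were both found in acute control 6 and acute hypoxic 6 and in no other acute fish. The remaining shared patterns each held features of one larger assembly group. TRINITY_DN25209_c1_g1 and TRINITY_DN25209_c0_g1 were at 0 counts in control 2, hypoxic 3 and hypoxic 4 and at 11.1 to 31.7 and 2.76 to 12.4 CPM in the other 9. Among acute fish both were at 0 in hypoxic 1, 2 and 3. These sets were singled out after their values had been seen and carry no test, and whether the fish that carried them follow the exposure groups was not tested.

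**Figure D5:**
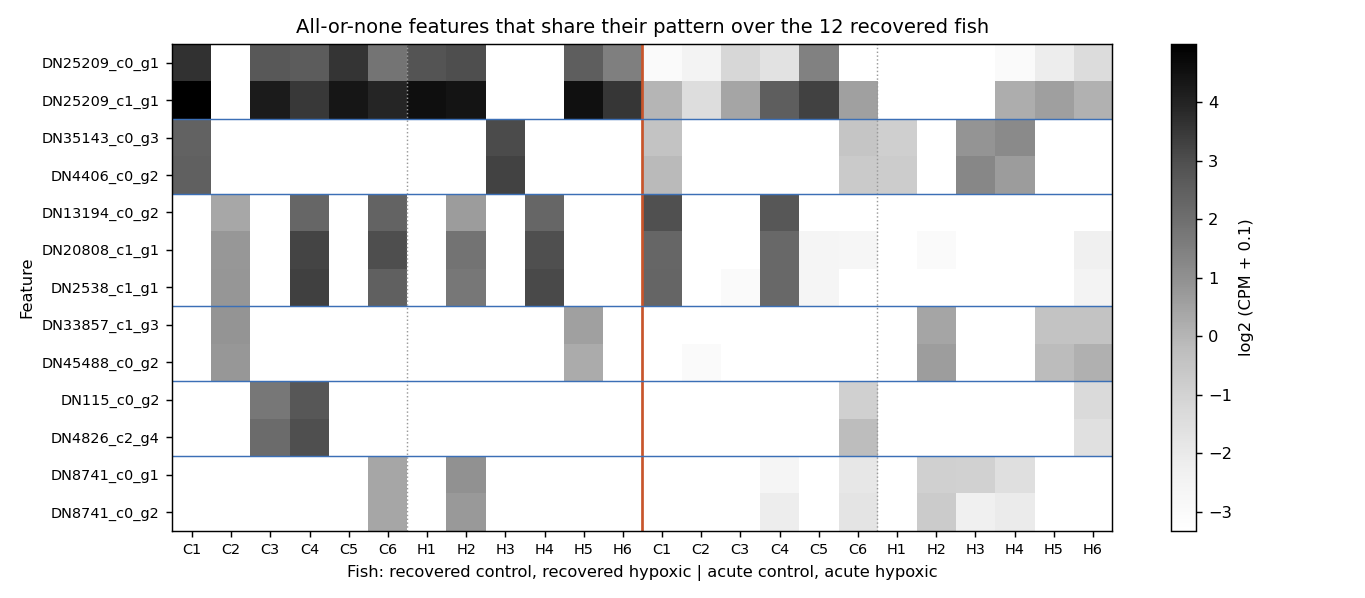
Level of the 13 all-or-none features that share a pattern (rows, blue lines between patterns) in each of 24 fish (columns; C control, H hypoxic), as log2 of CPM plus 0.1, white for absent and darker for higher. To the left of the orange line are the recovered fish that defined the patterns, and to its right the acute fish, in which features of one pattern again tend to appear in the same fish.

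Some features belonged to a single fish (CPM here scaled to library totals only, unless stated). Control 5 had 50 features at 1 CPM or more that had 0 counts in the other 11 fish, all of different components, against 2 to 27 in each other fish. They took 0.0297% of its counts, and 14 of the 50 were detected in at least 1 acute fish. The highest by scaled level were TRINITY_DN461177_c0_g1 at 39.9 CPM and TRINITY_DN320165_c0_g1 at 28.4 CPM, both with TMM factors, on 1457 and 1036 counts. In the reverse direction, 9 features were absent in 1 fish alone while every other fish had at least 1 CPM. Control 3 lacked 5, hypoxic 4 lacked 3 and hypoxic 3 lacked 1. The 3 missing from hypoxic 4, the library of whole values only, included TRINITY_DN67183_c1_g1, which was at 3.78 CPM or more in the other 11 fish.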

How the data were processed

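The authors deposited 1 table of estimated counts per feature and library, unscaled, per the file headers; Trimmomatic, RSEM and kallisto are named in the submitters' processing notes, while versions, assembly settings and annotation are not stated there. Library columns were matched to samples by library name. Estimated counts were rounded to whole numbers. Features were filtered with filterByExpr (minimum count 10, minimum total count 15) on the 12 recovery libraries, scaled by TMM factors and tested with the quasi-likelihood method of edgeR (version 4.0.16, R 4.3.3) with 2 group means; the Benjamini-Hochberg adjustment ran over all 57783 features, with a threshold of 0.05. A standard error is the log2 fold change divided by the square root of F; 95% intervals use the t quantile. Log2 CPM used a prior count of 2. Permutation tests enumerated all divisions of the fish. Alternatives used DESeq2 (version 1.42.0) and limma (version 3.58.1). The test was tested on simulated data.

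The features named were the 5 higher and 5 lower with the smallest p, the 3 most abundant, those with the largest weights on components 1 to 3, the leading members of the most frequent presence pattern and of the fish with most features of its own, and the 5 leading acute candidates; exceptions are stated. The comparison, lists and rules were chosen with earlier results of these data known. The chi-square per feature between 2 libraries of a group lay between 24.6 and 170 over 30 pairs, where sampling noise alone gives about 1. No pair within a group therefore looked like repeat counts of 1 library. The values cannot show that 2 libraries came from different fish. Each replicate was a separate fish per the labels. No molecular identifiers are named, so the limit given for a count of 0 covers counting error only. Muscle, blood, skin, immune and hypoxia marker lists could not be matched to identifiers and were not used. A planned sum over features was made per component.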

Additional observations from a re-analysis of the deposited data

Results flagged for a closer look

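In 9 of 82 sets of 6 values, 1 fish lay far from its group's other 5. Chance flags about 1 in 20 of independent sets of normal values. Many of these sets were features chosen for their values and all share fish, so that rate does not show the 9 to be an excess. Levels were examined as log2 of CPM plus 0.1. On component 1 hypoxic 3 scored 56.7 against -34.1 to -3.34 in the other hypoxic fish, and on component 3 hypoxic 1 scored 43.0 against -21.4 to 1.12. TRINITY_DN9271_c0_g2 was at 0.512 CPM in control 2 against 3.51 to 9.18 in the other controls, and at 5.49 CPM in hypoxic 3 against 26.2 to 66.3 in the other hypoxic fish. TRINITY_DN7698_c0_g1 was at 158 CPM in control 1 against 67.7 to 82.1 in the other controls. TRINITY_DN70895_c1_g1 was at 0.0612 CPM in control 1 against 1.84 to 4.78. Control 1 therefore lay towards the hypoxic fish on both of these features. TRINITY_DN253855_c3_g1, a feature of component 3, was at 0 CPM in hypoxic 1 against 4.43 to 34.3 in the other hypoxic fish. TRINITY_DN6864_c1_g1 was at 0.0359 CPM in hypoxic 3 against 0.366 to 0.857. TRINITY_DN1594_c2_g2 was at 5.21 CPM in hypoxic 1 against 11.9 to 15.7.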

How the results depend on the processing

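The fit without control 2, control 3 and hypoxic 3, the covariate and the test of spread were chosen after seeing the data. The count of 0 calls became 7 of 57783 features with DESeq2 and 1 of 57783 with the newer quasi-likelihood method. With no count filter it became 902 of 380665, of which 338 were in features that passed the filter. The count stayed at 0 with DESeq2 size factors, upper-quartile factors, the stricter filter, voom, robust spread, sums per component and all 24 libraries. It was also 0 at an adjusted p of 0.1, with the covariate and with the 3 fish left out together. Leaving out each fish in turn gave 0 to 0. The number bounded within 2-fold was 22068 to 31301 over all settings and 22885 to 26947 leaving out fish. The totals tested differed, and the 22068 were sums per component. As a share of those tested it was 46.3% in the main fit and 38.7% to 45.2% leaving out fish. It was 61.9% of 42387 with the stricter filter and 6.94% of 380665 with no filter. With a replicate block the calls were 0 and 27450 features were bounded within 2-fold; same-numbered fish correlated at -0.196 to 0.481, over 0.1 in 3 of 6 pairs, and the numbers therefore did not count as a pairing. Of the unadjusted calls 40.3% were higher, 51.8% with voom, 60.1% with the covariate, 52.3% without the 3 fish and 25% to 51.1% leaving out fish (25% without post hypoxic replicate 3), so no direction is drawn from them. Their number, 1315, was 2368 without the 3 fish and 2046 without post hypoxic replicate 3. Component 2 gave 15.81 with 500 features, 12.94 with a prior count of 0.5 and -14.07 with all features, and component 3 gave -12.85, -26.08 and -21.37, each from a separate decomposition; none passed the exact permutation test (lowest p 0.147). The share between groups was 7.39% to 9.27% and same-group neighbours 3 to 7 leaving out fish. The spread difference lost its call without the 3 fish (2.41). The 824 all-or-none features were 95 at a level of 5 CPM. The 10 features with the smallest p kept their direction in every fit that tested them. Those fits reused the fish in which the 10 were picked, so a turn was unlikely and nothing is drawn from it. TRINITY_DN1594_c2_g2 turned with upper-quartile factors (-0.01), the stricter filter (0.00), voom (-0.02), without the 3 fish (-0.20) and leaving out fish (-0.12 to 0.34). TRINITY_DN5684_c0_g2 turned with a replicate block (0.05), the covariate (0.01) and leaving out fish (-0.24 to 0.26). The acute candidates' median was 0.03 to 0.21 leaving out fish. For each of these shifts the cause was not tested. Of the features under 1 CPM, 3.36% were bounded within 2-fold.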
